A study of Rattus norvegicus with 4 samples.

Results

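Mobp, Mog, Opalin, Ermn, Hapln2, Aspa, Klk6, Enpp6 and Myrf are 9 genes known for their use in the myelin of oligodendrocytes, and their UMI (unique molecular identifier) counts were followed here over spatial transcriptomic spots of the rat trigeminal nerve. They were taken by symbol, and all 9 of 9 had a row among the 32623 genes counted. The tissue was trigeminal nerve, from its root over the semilunar ganglion to the first stretch of its branches, of adult male Sprague–Dawley rats, for which the labels name no altered allele. In the trigeminal neuralgia (TN) group the root of 1 side had been compressed mechanically, and TN1, TN2 and TN3 each held the diseased side of 1 animal. The healthy control (HC) was a single capture area with tissue of 2 animals, so animals were pooled in it and it counted as 1 sample. The series text takes HC from the uncompressed side of TN animals, whereas the study's methods describe sham-operated controls, so some TN and HC tissue may come from 1 animal. Condition and capture area cannot be told apart with 1 HC area.

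Myelin is made by oligodendrocytes in the central nervous system and by Schwann cells in peripheral nerves. Both cell types use genes such as Mbp and Mag, but oligodendrocytes alone are generally held to use Mog, Mobp and Opalin, and Schwann cells use Prx and Pmp2. The trigeminal root holds the border between both kinds of myelin, close to the pons.

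Each gene has its own role. Mobp (ENSRNOG00000018700) encodes a small basic protein that lies between the layers of compact central myelin, and Mog (ENSRNOG00000000775) a glycoprotein on the outermost surface of the sheath. Opalin (ENSRNOG00000022386) is a membrane glycoprotein of oligodendrocytes, and Ermn (ENSRNOG00000021472) a cytoskeletal protein of the sheath. Hapln2 (ENSRNOG00000018870) is a link protein of the hyaluronan matrix at nodes of Ranvier. Aspa (ENSRNOG00000019659) splits N-acetylaspartate into aspartate and acetate, Klk6 (ENSRNOG00000031927) is a secreted serine protease, and Enpp6 (ENSRNOG00000009660) is a choline phosphodiesterase known from newly forming oligodendrocytes. Myrf (ENSRNOG00000028274) is the membrane-bound transcription factor that oligodendrocytes need to make myelin.

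Promoter sequences, 250 bases before to 50 bases after the start of the gene, were found in the RefSeq table of assembly GRCr8 for 6 of the 9 genes, all but Mog, Ermn and Myrf. The 4 below are shown as examples. Mobp and Klk6 rose and fell together over spots, Opalin followed them less closely and Aspa went apart from them. Each is written 5′ to 3′ on the strand of the gene, and capitals mark 3 short motifs on either strand: CTGGCAC or CTGGTAC (core of the MYRF motif), ACAAAG (core of SOX motifs) and CAGCTG (an E-box).
Mobp, chr8:128746982-128747281, plus strand: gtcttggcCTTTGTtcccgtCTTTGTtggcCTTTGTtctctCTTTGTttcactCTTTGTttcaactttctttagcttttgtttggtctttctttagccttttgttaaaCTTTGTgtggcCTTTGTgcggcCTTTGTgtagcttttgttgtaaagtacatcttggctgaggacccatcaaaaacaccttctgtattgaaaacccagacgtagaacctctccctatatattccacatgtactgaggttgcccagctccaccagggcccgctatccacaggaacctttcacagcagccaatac
Opalin, chr1:249858141-249858440, minus strand: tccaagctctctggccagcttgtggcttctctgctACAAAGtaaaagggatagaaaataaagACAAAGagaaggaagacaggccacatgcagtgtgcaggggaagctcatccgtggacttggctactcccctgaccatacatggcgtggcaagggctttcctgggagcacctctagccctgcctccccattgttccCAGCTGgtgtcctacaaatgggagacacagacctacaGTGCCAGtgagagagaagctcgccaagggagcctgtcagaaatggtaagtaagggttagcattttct
Klk6, chr1:103415266-103415565, plus strand: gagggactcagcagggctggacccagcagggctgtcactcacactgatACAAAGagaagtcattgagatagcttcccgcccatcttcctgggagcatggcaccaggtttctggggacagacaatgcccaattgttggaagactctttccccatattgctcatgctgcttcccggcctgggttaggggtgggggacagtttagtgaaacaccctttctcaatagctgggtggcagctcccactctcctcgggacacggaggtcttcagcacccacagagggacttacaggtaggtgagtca
Aspa, chr10:58438988-58439287, minus strand: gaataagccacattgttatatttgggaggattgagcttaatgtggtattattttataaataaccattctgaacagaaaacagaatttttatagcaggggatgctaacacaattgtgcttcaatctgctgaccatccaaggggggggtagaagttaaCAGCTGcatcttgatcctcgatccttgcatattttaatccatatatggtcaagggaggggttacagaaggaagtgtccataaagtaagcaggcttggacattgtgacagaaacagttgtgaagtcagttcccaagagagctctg
Mobp carried 8 copies of the SOX letters, all written as CTTTGT, and 3 or more copies stood in 0.224% of the 33469 promoters of the same length. At least 1 copy was present in 18.8% of those promoters, and also in Opalin, Hapln2, Klk6 and Enpp6, but not in the Aspa window. The MYRF letters, found in 6.78% of promoters, were in Opalin, Hapln2 and Enpp6. The E-box letters, found in 15.1%, were in Opalin, Hapln2, Aspa and Enpp6, and in Enpp6 they overlapped the MYRF letters. These are matches of letters only, and no binding was measured.

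The 4 areas held 1587 (TN1), 1256 (TN2), 1917 (TN3) and 2013 (HC) spots, 6773 in all, with 23546025 to 41335930 UMIs each. A Visium spot is a small region that can hold several cells, so spots were named after an index and not after a cell type. A spot was called an oligodendrocyte spot when 9 other oligodendrocyte genes (among them Olig1, Olig2, Nkx6-2, S1pr5, Carns1, Tmem88b, Gpr62 and Prr18) summed to more than 201 CPM (counts per 1000000, UMIs of the genes per 1000000 UMIs of the spot). Schwann cell spots were set in the same way, at 478 CPM, from Prx, Drp2, Egr2, Ncmap and Cldn19. Oligodendrocyte spots numbered 820 in TN1 (51.7% of its spots), 352 in TN2 (28.0%), 476 in TN3 (24.8%) and 874 in HC (43.4%). Of these 2522 spots, 392 passed both indices. The share of such spots thus differed between areas, and TN1 and HC held the most. The index is relative to the UMIs of a spot, so a shallow spot passes with fewer index UMIs than a deep one. Median UMIs over all spots of an area ran from 9487 (TN1) to 30808 (TN2). Over oligodendrocyte spots they ran from 5201 (TN3) to 11275 (TN2). How far depth shaped these shares was not tested. Central neuron genes (Gad1, Gad2, Slc32a1 and Slc6a5) had a UMI in 409 and 146 oligodendrocyte spots of TN1 and TN2 but in 4 and 7 of TN3 and HC. The areas thus also differed in how much RNA of these 4 genes their oligodendrocyte spots held. All 4 are genes of inhibitory neurons, so a spot without such a UMI may still hold RNA of other central neurons. The study preliminarily placed 1 of its spot clusters, found in TN1 and TN2, in the trigeminal nucleus of the pons. Whether the spots with these UMIs belong to that cluster was not tested. Sensory neuron spots, set at 1993 CPM from Calca, Tac1, Prph, Avil and Scn10a, numbered 179, 241, 183 and 365. They were taken only among spots that passed neither of the other indices. Of the barcode sequences, 1236 occurred in 1 area and 2337 in several, as capture areas of this kind carry the same barcode set.

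Most UMIs of 7 of the 9 genes lay in oligodendrocyte spots in every area, those of Myrf in TN1 and HC alone, and those of Aspa in none. Levels are given here as plain CPM, taken over all UMIs in the spots named. Mobp stood at 488, 474, 590 and 760 CPM in the spots of TN1, TN2, TN3 and HC that passed only the oligodendrocyte index, against 36.1, 22.0, 15.5 and 78.9 in spots that passed only the Schwann cell index. Mog stood at 364, 357, 430 and 573 CPM in the former and at 19.95, 11.7, 10.9 and 35.7 in the latter. Both genes were thus higher in the oligodendrocyte spots of every area, 9.63 to 38.1-fold for Mobp and 16.1 to 39.2-fold for Mog. Opalin (9.92 to 31.5-fold), Ermn (9.47 to 30.8-fold), Hapln2 (7.78 to 22.1-fold), Klk6 (11.2 to 37.5-fold) and Enpp6 (11.8 to 24.5-fold) behaved alike. Myrf was 4.19 to 7.69-fold higher in oligodendrocyte spots.

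**Figure D1:**
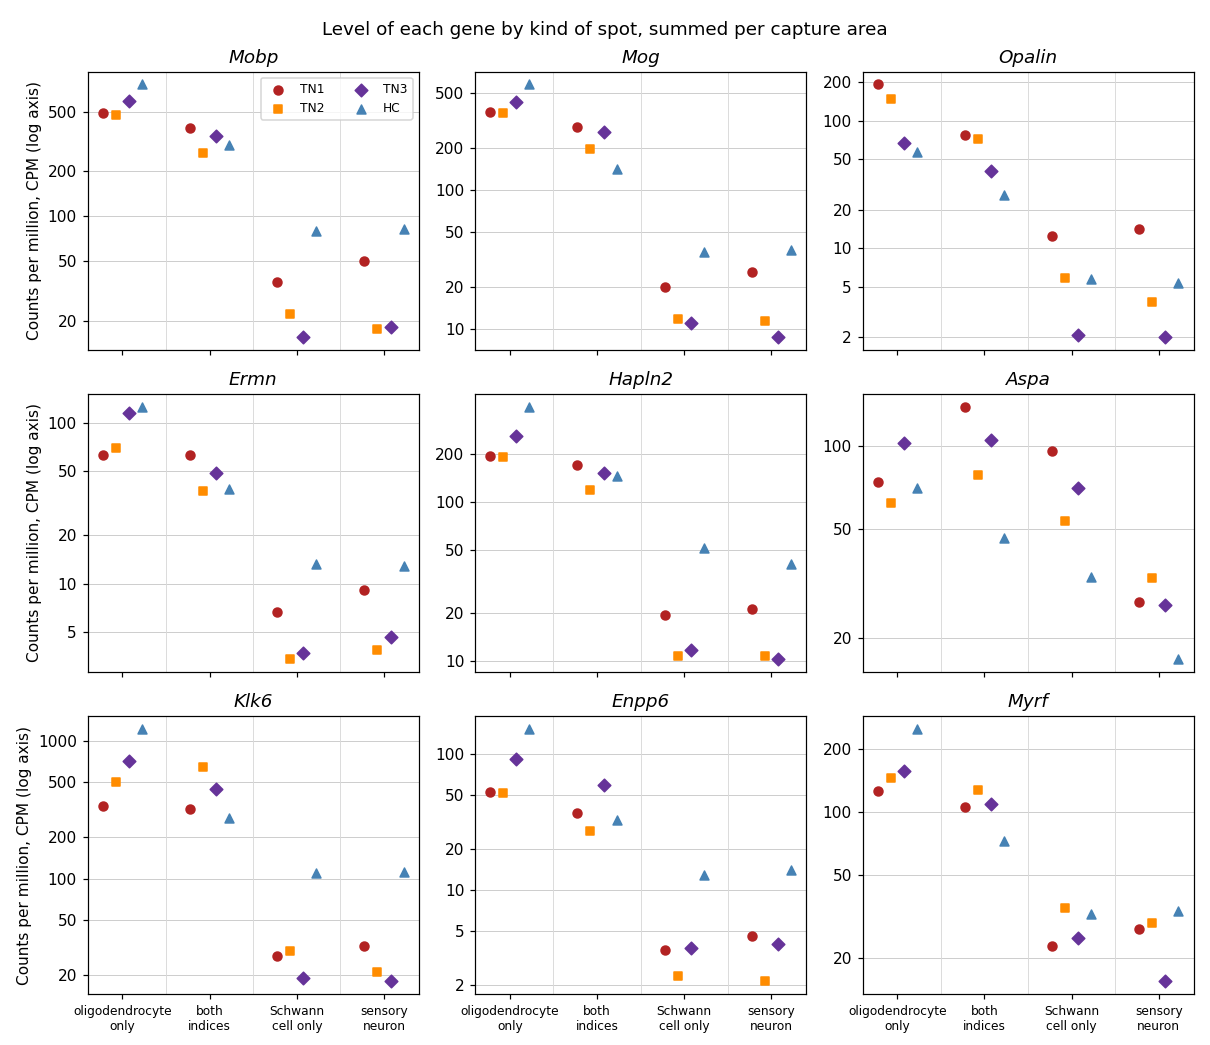
Level of each of the 9 genes in CPM (log axis) by kind of spot, 1 point per capture area (TN1, TN2, TN3 and HC). Sensory neuron spots passed their own index and neither of the other indices. In all panels but that of Aspa, the 4 points of spots that passed only the oligodendrocyte index lie above all points of spots that passed only the Schwann cell index.

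Aspa had no such preference. Its level in spots that passed only the oligodendrocyte index was 74.4 (TN1), 62.3 (TN2), 103 (TN3) and 70.4 (HC) CPM, and in spots that passed only the Schwann cell index it was 95.9, 53.2, 70.3 and 33.4. The oligodendrocyte level was 0.776 times the Schwann cell level in TN1 and 1.17, 1.46 and 2.11 times in TN2, TN3 and HC, so the direction was not the same in all areas. In spots that passed both indices, Aspa stood at 140, 78.5, 106 and 46.3 CPM, above both other kinds of spot in the 3 TN areas and between them in HC. Spots of the Schwann cell index alone held 46.5%, 50.6%, 63.6% and 41.1% of all Aspa UMIs in TN1, TN2, TN3 and HC. For the 7 genes other than Aspa and Myrf, that share lay between 4.63% (Mog in TN1) and 19.2% (Hapln2 in HC). On average over the 4 areas, oligodendrocyte spots held 29.0% ± 13.9 (SD, n = 4 areas) of the Aspa UMIs, 55.1% ± 15.3 of the Myrf UMIs and 72.5% ± 6.53 (Hapln2) to 81.5% ± 4.60 (Mog) for the other 7 genes. Myrf thus stood between Aspa and the rest, and its share was low in TN2 (40.9%) and TN3 (43.3%) and high in TN1 (71.4%) and HC (65.0%).

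A UMI of a gene in a spot does not place its cells there, since RNA can spread over the slide. In sensory neuron spots, which should lack oligodendrocytes, Mobp had a UMI in 78.8%, 53.5%, 41.5% and 90.4% of spots in TN1, TN2, TN3 and HC. The exact 95% binomial intervals, which cover counting error only, were 72.0% to 84.5%, 47.0% to 60.0%, 34.3% to 49.0% and 86.9% to 93.2%. Those spots were deep, with 35699 to 49454 UMIs at the median, against 5201 to 11275 in oligodendrocyte spots. After each spot was thinned to 2000 UMIs, Mobp was seen in 17.9%, 1.27%, 2.58% and 20.3% of sensory neuron spots, in 7.22%, 6.08%, 3.35% and 15.9% of spots of the Schwann cell index alone, and in 60.2%, 63.2%, 66.1% and 65.6% of oligodendrocyte spots. In HC and TN1 the share in Schwann cell spots was below that in sensory neuron spots. In TN2 (6.08% against 1.27%) and TN3 (3.35% against 2.58%) it was above. Whether spread RNA made up these shares was not tested. At 2000 UMIs Aspa was seen in 21.1%, 9.30%, 16.2% and 5.84% of spots of the Schwann cell index alone. In sensory neuron spots of the same areas its shares were 5.59%, 5.91%, 5.81% and 4.67%. Aspa was thus above in every area, though the gap in HC was small, whereas Mobp was above in TN2 and TN3 alone. In TN2 the 2 Mobp shares lay further apart in ratio than those of Aspa. Thinned Myrf shares in spots of the Schwann cell index alone were 3.25%, 6.26%, 4.63% and 6.91%, against 6.70%, 5.06%, 3.23% and 6.87% in sensory neuron spots, so they lay below in TN1, above in TN2 and TN3 and close in HC. Over all spots, at least 1 of the 9 genes was seen in 90.1% to 99.1% of spots before thinning and in 46.0% to 70.6% after it.

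Over the spots of an area, the genes rose and fell together, again without Aspa. Correlations were taken over single spots of log2(UMIs per 10000 + 1), and spots of an area share a library and differ in depth, so the values are descriptions. Mobp and Mog had a Pearson r of 0.70 in TN1 (1587 spots), 0.82 in TN2 (1256 spots), 0.75 in TN3 (1917 spots) and 0.67 in HC (2013 spots). Klk6 followed Mobp (0.66, 0.80, 0.76 and 0.66) and Mog (0.69, 0.77, 0.76 and 0.74) as closely. Over the 28 pairs without Aspa, the median r was 0.40, 0.58, 0.45 and 0.53, and no pair was below 0. The pairs with Aspa had a median of -0.01, 0.14, 0.10 and 0.19. Thinned to 2000 UMIs a spot, the median r over all 36 pairs fell from 0.37, 0.53, 0.39 and 0.48 to 0.16, 0.24, 0.23 and 0.16. Within oligodendrocyte spots alone it was weaker, at 0.21, 0.29, 0.16 and 0.34, and at 0.08, 0.12, 0.08 and 0.11 after thinning. Choosing spots by an index of related genes can itself lower r. How much of the joint rise and fall lay between spots inside and outside the index was thus not measured.

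With the 8 Schwann cell genes, the 8 genes other than Aspa ran in the opposite direction. All 64 pairs were negative in every area, with a median r of -0.38 (TN1), -0.36 (TN2), -0.32 (TN3) and -0.30 (HC). Prx, which encodes a scaffold protein of peripheral myelin, had an r with Mobp of -0.61, -0.57, -0.49 and -0.55 in TN1, TN2, TN3 and HC. Aspa was the exception once more, with a median r over the 8 Schwann cell genes of 0.24, 0.05, 0.11 and 0.01 in TN1, TN2, TN3 and HC. In the spots outside the oligodendrocyte index, Aspa and the summed Schwann cell genes had an r of 0.40, 0.16, 0.30 and 0.31, where Mobp had -0.36, -0.24, -0.25 and -0.26. Within oligodendrocyte spots the median over all 72 pairs was weaker, at -0.09, -0.03, -0.11 and -0.19.

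**Figure D2:**
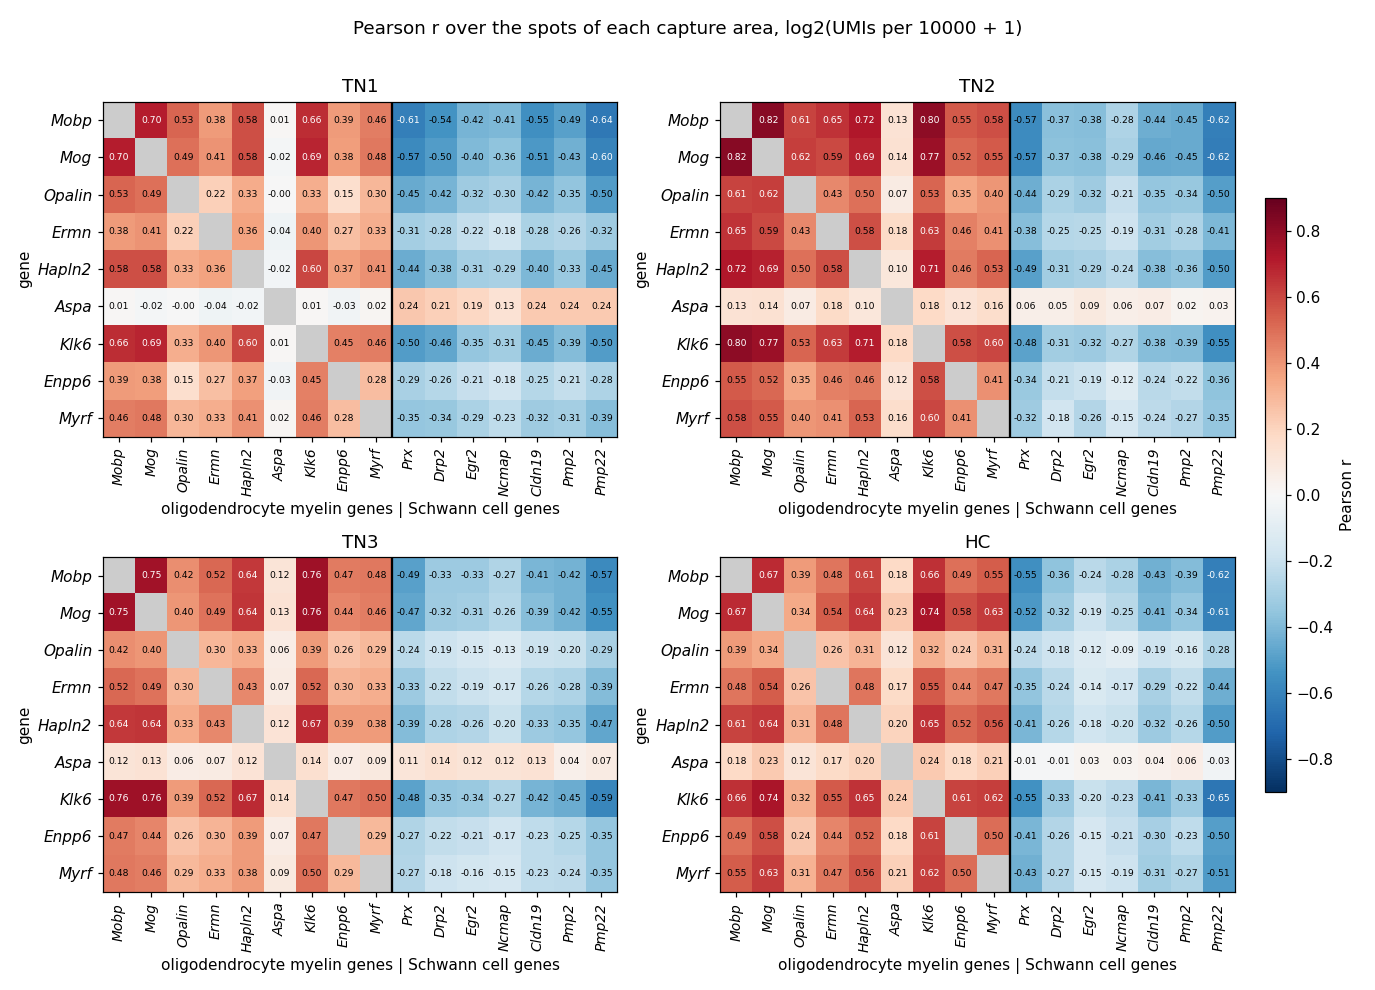
Pearson r over the spots of each area (1 panel each; log2 of UMIs per 10000 plus 1) between the 9 genes and each other, left of the black line, and 7 of the 8 Schwann cell genes, right of it. The row of Aspa is pale against the genes of its own list and not negative against Schwann cell genes in TN1, TN2 and TN3, whereas the other 8 rows are positive on the left outside the Aspa column and negative on the right.

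Of the 8919 genes seen in 100 or more spots of every area, those most like the summed level of the 9 genes were ranked by their lowest r over the 4 areas. The first 10 included Aplp1, with 0.80, 0.88, 0.85 and 0.83 in TN1, TN2, TN3 and HC, as well as Tf (lowest r 0.79), Mag (0.75), Cldn11 (0.72), Mbp (0.71) and Ppp1r14a (0.71). Mag, Cldn11 and Mbp encode myelin proteins, and Tf encodes transferrin. The astrocyte genes Gfap (0.69) and Aqp4 (0.68) were also among the first 10. Spots hold several cells, so a shared pattern over spots does not place genes in the same cell.

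TN was then compared with HC on UMIs summed over all spots of each area. Levels in this comparison are CPM scaled by TMM (trimmed mean of M values), and log2 differences are TN minus HC. No gene was called among 14902 tested with edgeR's quasi-likelihood test and Benjamini-Hochberg adjustment, so 0% of genes and 0 of the 9 genes passed an adjusted p of 0.05. At an unadjusted p under 0.05 stood 1271 genes (8.53%), with Klk6, Enpp6 and Aspa among them. DESeq2 called 164 genes (1.16%), of which Klk6 was the only one of the 9. The fit had 2 residual degrees of freedom, and its p-values measure only the spread between 3 TN areas. In such sums, fewer oligodendrocytes and less RNA per cell cannot be told apart.

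Klk6 stood farthest apart. In TN1, TN2 and TN3 it measured 135, 92.2 and 92.9, against 329 in HC. All TN areas were below HC, and the log2 difference was -1.63 ± 0.29 (SE; unadjusted p = 0.00247, adjusted p = 0.556 by edgeR's quasi-likelihood test). Enpp6 measured 20.9, 8.78 and 13.1 against 41.0, a log2 difference of -1.52 ± 0.47. Hapln2 measured 80.0, 34.7 and 37.6 against 119, a log2 difference of -1.23 ± 0.50. For all 3 genes TN1 lay nearest to HC.

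Mobp and Mog also differed widely between the TN areas. Mobp measured 195, 79.1 and 76.0 against 222 in HC, and Mog 139, 56.9 and 55.2 against 142. TN1 was close to HC for both, and TN2 and TN3 were well below. Without TMM scaling, Mog in TN1 was above HC (140 against 136 CPM). The log2 differences were -0.93 ± 0.58 for Mobp and -0.77 ± 0.58 for Mog. Ermn (-0.98 ± 0.46) and Myrf (-0.68 ± 0.31) were likewise below HC in all 3 TN areas. This held for 7 of the 9 genes, where 30.6% of all genes tested had all TN areas below HC. The median log2 difference of the 9 genes was -0.93, beside 0.06 over all genes.

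Aspa and Opalin differed from the rest. Aspa measured 66.4, 49.9 and 63.9 against 36.4 and was above HC in all 3 TN areas, as were 28.7% of all genes. Its log2 difference was 0.72 ± 0.27 (unadjusted p = 0.0418, adjusted p = 0.556 by edgeR's quasi-likelihood test). Opalin measured 73.4, 23.5 and 8.91 in the TN areas and 16.6 in HC, so the TN areas lay on both sides of HC.

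The count of genes called over all spots depended on TN1. Without it, edgeR called 2171 of 14692 genes (14.8%) and 7 of the 9 genes, all lower in TN. These were Mobp (log2 -1.52, adjusted p = 0.0130), Mog (-1.35), Ermn (-1.39), Hapln2 (-1.72), Klk6 (-1.83), Enpp6 (-1.91) and Myrf (-0.88, adjusted p = 0.0459 by edgeR's quasi-likelihood test). Over all 8 alternatives the adjusted p ranged from 0.0130 to 0.995 for Mobp and from 0.0459 to 0.995 for Myrf. The log2 difference of Opalin went from 1.09 to -0.03 and that of Aspa to 0.64. TN1 also had the highest share of oligodendrocyte spots, with 51.7% of its spots against 28.0% and 24.8% in TN2 and TN3. Median depth over all spots was lowest in TN1 (9487 UMIs), and passing the index depends on depth. The p-values of the fit without TN1 measure only the spread between TN2 and TN3, which had like shares of oligodendrocyte spots. The part of tissue make-up in the difference was not tested over all spots.

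In oligodendrocyte spots alone, TN2 and TN3 lay nearer to HC, in ratio to it, for Mobp, Mog, Klk6, Enpp6 and Hapln2. TN1 lay farther from HC for the same genes than over all spots. None of 12190 genes was called by edgeR (0%), 303 (2.49%) had an unadjusted p under 0.05, and DESeq2 called 11 (0.0747%) with 0 of the 9 genes among them. Mobp measured 504 (TN1), 440 (TN2) and 537 (TN3) against 663 in HC, and Mog 375, 332 and 394 against 479. The log2 differences shrank to -0.43 ± 0.34 and -0.38 ± 0.32. Klk6 measured 349, 489 and 659 against 1018, a log2 difference of -1.03 ± 0.45. Enpp6 measured 54.1, 48.2 and 85.5 against 128, a log2 difference of -1.03 ± 0.40 (unadjusted p = 0.0492, adjusted p = 0.99997 by edgeR's quasi-likelihood test), and was the only one of the 9 genes under 0.05 before adjustment. Hapln2 (201, 178 and 237 against 344), Myrf (130, 138 and 146 against 211) and Ermn (65.9, 64.6 and 101 against 107) were below HC in all TN areas too. In total 7 of the 9 genes had every TN area below HC, beside 21.5% of all genes tested. The sizes depended on which spots were taken. With the index threshold lowered by 1 log2 unit, which takes in more spots, the log2 difference was -0.0021 for Mobp and 0.15 for Mog. It was -0.011 for Ermn, -0.10 for Myrf and -0.55 for Klk6. This took HC from 874 to 1434 spots, and TN1, TN2 and TN3 from 820, 352 and 476 to 1096, 474 and 639. With the threshold raised by 1 log2 unit, the log2 difference was -0.48 for Mobp and -0.50 for Mog. It was -0.53 for Ermn, -0.74 for Myrf and -1.12 for Klk6, and no gene was called by edgeR.

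**Figure D3:**
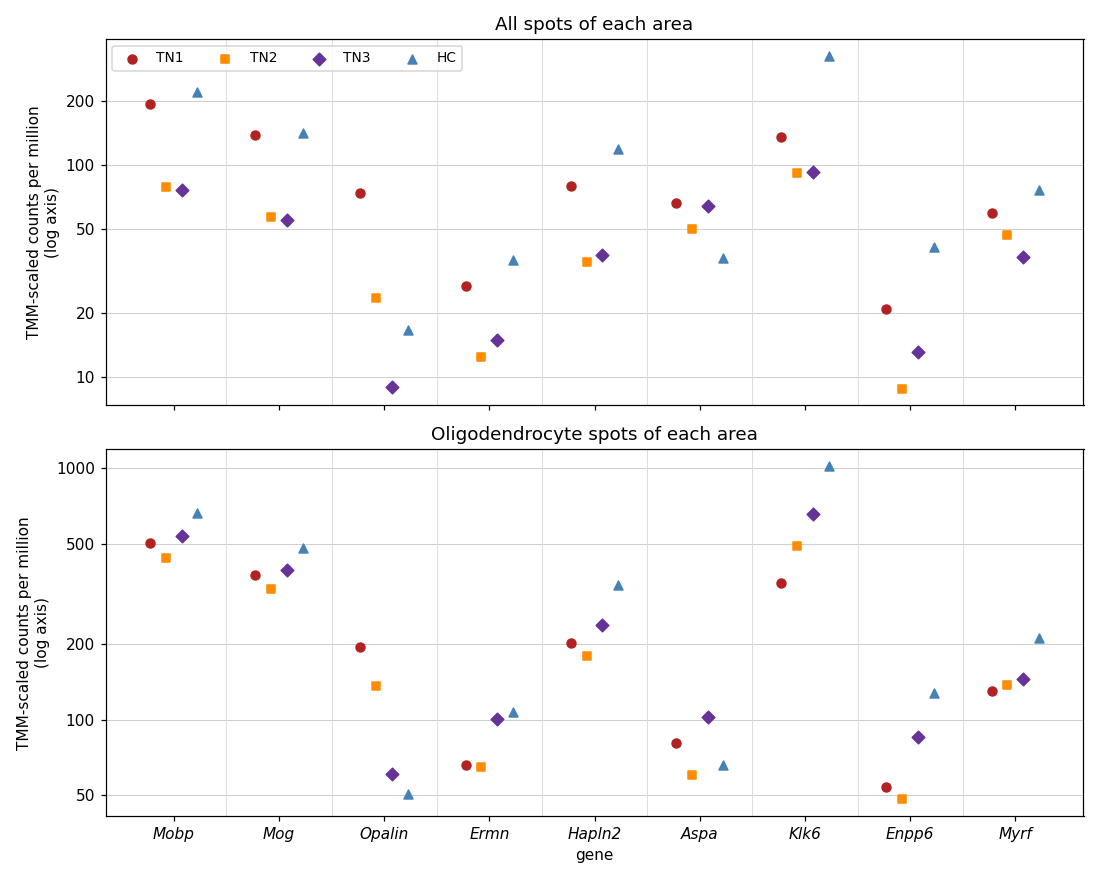
TMM-scaled CPM (log axis) of the 9 genes in each capture area, over all spots (upper panel) and over oligodendrocyte spots (lower panel), 1 point per area. HC is the highest point for 7 genes in both panels, and the gap of TN2 and TN3 to HC is smaller in the lower panel for Mobp and Mog.

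Opalin ran the other way in oligodendrocyte spots. Its level was 195, 136 and 60.7 in TN1, TN2 and TN3 and 50.6 in HC. Every TN area was above HC, as for 19.3% of all genes, but TN3 lay much nearer to HC than to TN1. The log2 difference was 1.37 ± 0.72 (unadjusted p = 0.118). Aspa measured 80.4, 60.1 and 103 against 65.9, and the groups overlapped.

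Among the other lists, the 11 myelin genes of both lineages were all lower in TN in oligodendrocyte spots, with a median log2 difference of -0.68, against 0.06 over all genes. None was called, and Mbp (-1.03) and Mag (-0.68) were among them. The 9 genes had a median of -0.47, and the 6 tested genes of the oligodendrocyte index -0.47, with 4 lower and 2, Olig1 (0.50) and Olig2 (0.35), higher. The index genes themselves chose these spots, so their differences there depend on that choice and are no independent comparison. Of 6 tested genes of precursors and newly formed oligodendrocytes, 4 were higher and 2 lower (median 0.20). Over all spots, the 8 Schwann cell genes were all higher in TN (median 0.41), and in oligodendrocyte spots 7 of 8 were lower (median -0.56), none called in either. Of all genes tested, 45.3% were lower in TN over all spots and 44.0% in oligodendrocyte spots.

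Markers of other cell types (listed in the methods) also differed between the areas within oligodendrocyte spots. The 4 central neuron genes summed to 195 and 115 CPM in TN1 and TN2 but to 1.43 and 0.843 in TN3 and HC, where 1 of the 4 was at 0. The 5 sensory neuron genes summed to 696 to 1300 in TN and 2496 in HC, and all 5 were lower in TN. The 5 blood and bone genes summed to 51.2 to 117 in TN and 429 in HC, and the 3 pituitary genes to 42.4 to 169 and 356. The 7 astrocyte genes spanned 2420 to 8382 in TN around 4750 in HC, the 5 microglia genes 225 to 722 around 279, the 4 connective tissue genes 404 to 1734 around 1521, and the 8 Schwann cell genes 3636 to 10983 around 10062. In the test, 6 of 7 astrocyte, 5 of 5 microglia, 4 of 4 central neuron and 3 of 4 connective tissue genes had a higher mean in TN. A lower mean was seen for 5 of 5 blood and bone and 3 of 3 pituitary genes. Of all genes tested in these spots, 44.0% were lower in TN. None of the listed genes was called, as no gene was by edgeR. Apart from the central neuron genes, no list had a gene at 0 in these spots other than 1 index gene in TN2 and in TN3 and 1 precursor gene in each TN area. The part of these cell types in the differences was not tested.

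The 9 genes were also set against the summed UMIs of the 9 index genes over all spots, which scales each area by its own index RNA. UMIs outside oligodendrocyte spots count in these ratios too. Spots of the Schwann cell index alone held 41.1% to 63.6% of the Aspa UMIs and 12.4% to 39.1% of the Myrf UMIs. The ratios of these genes are thus not of oligodendrocyte spots alone. Per 100 index UMIs there were 64.6, 66.9 and 74.0 Mobp UMIs in TN1, TN2 and TN3 and 86.2 in HC, and 46.0, 48.1 and 53.7 Mog UMIs against 55.2. On this scale TN1 no longer stood nearest to HC for either gene. Klk6 had 44.8, 78.0 and 90.4 UMIs against 128, Opalin 24.3, 19.9 and 8.67 against 6.43, and Aspa 22.0, 42.2 and 62.2 against 14.1. Klk6 was lowest and Opalin highest in TN1, whereas Aspa was highest in TN3. Hapln2 and Enpp6 were below HC in all TN areas on this scale too. Myrf, at 19.7, 39.3 and 35.7 against 29.6, and Ermn, at 8.94, 10.5 and 14.5 against 13.9, were not.

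The balance between the 9 genes shifted from area to area. Klk6 made up 17.0% (TN1), 22.8% (TN2) and 23.3% (TN3) of their summed UMIs and 32.3% in HC. Opalin made up 9.22%, 5.82% and 2.23% against 1.63%, and Aspa 8.35%, 12.4% and 16% against 3.57%. In oligodendrocyte spots the share of Klk6 was 17.9%, 26.0% and 28.4% against 33.2%, and that of Opalin 9.95%, 7.19% and 2.61% against 1.65%. TN1 and HC were the extremes for both genes, in opposite order. The share of Aspa in oligodendrocyte spots was 4.11%, 3.19% and 4.42% against 2.15%, nearer to HC than over all spots. Mobp, Mog, Ermn and Hapln2 kept closer shares, such as 21.6% to 25.8% for Mobp in oligodendrocyte spots.

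**Figure D4:**
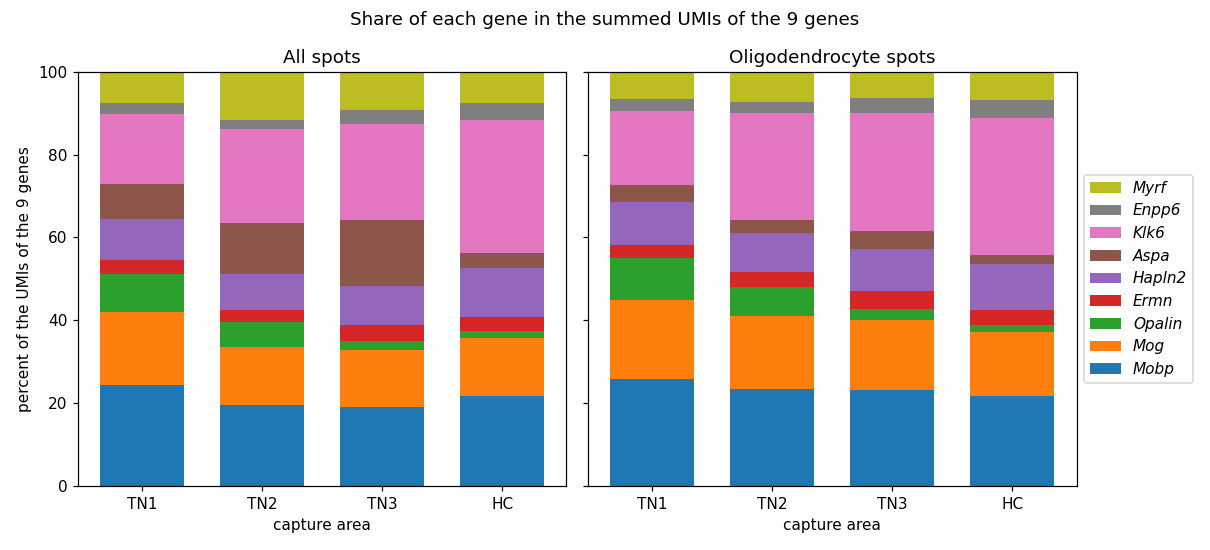
Percent of the summed UMIs of the 9 genes that each gene took in TN1, TN2, TN3 and HC, over all spots (left) and oligodendrocyte spots (right). The share of Opalin narrows from TN1 (9.22% over all spots) to HC (1.63%) while that of Klk6 widens from 17.0% to 32.3%.

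In TN1 and TN2, 8 of the 9 genes were lower in oligodendrocyte spots with a central neuron UMI than in those without. In TN1, Klk6 stood at 198 CPM in the 409 oligodendrocyte spots with a central neuron UMI and at 577 in the 411 without. In TN2 it stood at 260 in 146 spots and at 898 in 206. Enpp6 stood at 31.8 against 87.6 in TN1 and at 26.1 against 88.0 in TN2. Both genes were thus 2.76 to 3.45-fold higher where no central neuron UMI was seen. Mobp, Mog, Ermn, Hapln2, Aspa and Myrf were also higher there, 1.38 to 2.67-fold, in both areas. Opalin was not, at 197 against 168 in TN1 and 143 against 141 in TN2. Other lists were higher there as well. The 9 genes together were 1.66-fold (TN1) and 2.15-fold (TN2) higher without such a UMI, the 11 myelin genes of both lineages 1.72 and 2.08-fold, the astrocyte genes 1.69 and 2.35-fold, the Schwann cell genes 3.13 and 1.35-fold and the oligodendrocyte index genes 1.16 and 1.52-fold. The last of these depend on the index, which chose the spots by the same genes. These are spots of 1 animal each and were not tested. Spots with such a UMI were deeper, with median UMIs of 12084 against 6009 in TN1 and 20414 against 8668 in TN2. In spots of 5000 to 20000 UMIs alone, Klk6 stood at 206 against 595 in TN1 and at 372 against 1034 in TN2.

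**Figure D5:**
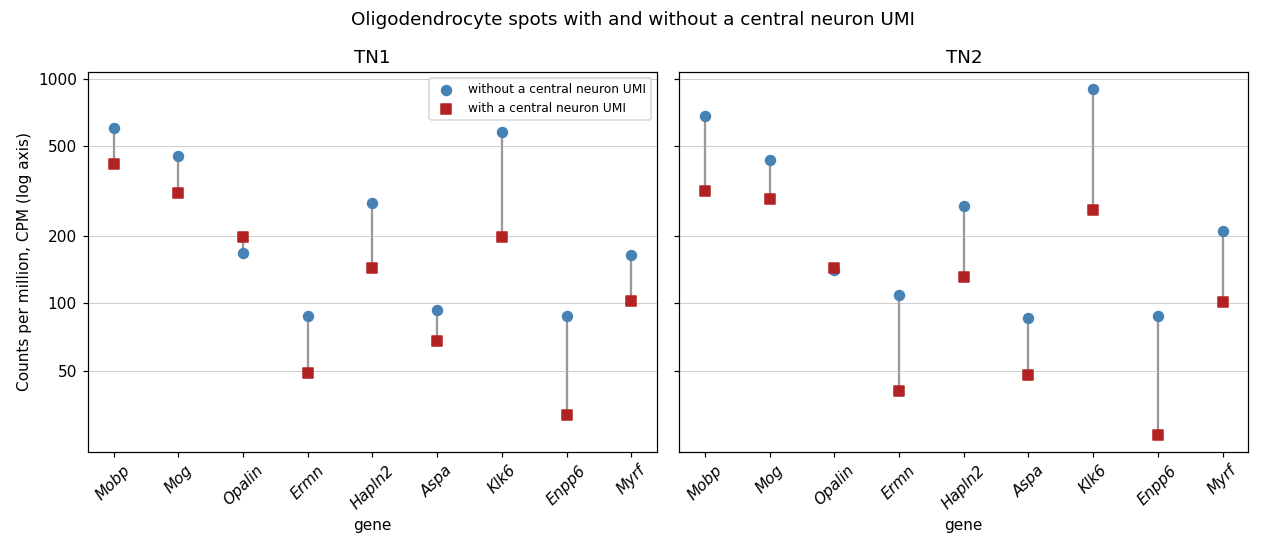
CPM (log axis) of the 9 genes in oligodendrocyte spots of TN1 and TN2 with (squares) and without (circles) a UMI of a central neuron gene. The gap is wide for Klk6 and Enpp6 and absent or slightly reversed for Opalin.

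When spots with a central neuron UMI were left out of all areas, the differences between TN and HC were smaller for the 7 genes below HC, and Opalin remained above it in all TN areas. This left out 409 of 820 oligodendrocyte spots in TN1 and 146 of 352 in TN2, but 4 of 476 in TN3 and 7 of 874 in HC. In TN1 and TN2, 8 of the 9 genes were lower in the spots left out, so their levels there had to rise. The smaller differences are thus not a result separate from that split. In TN3, Klk6 moved only from 663 to 669. Levels in this paragraph are plain CPM, and log2 differences are of the TMM-scaled fit. Klk6 then stood at 577, 898 and 669 CPM in TN1, TN2 and TN3 and at 1003 in HC. Its log2 difference went from -1.03 to -0.55 ± 0.32. Enpp6 stood at 87.6, 88.0 and 87.0 against 126, with a log2 difference of -0.58 ± 0.22. Mobp, at 604, 684 and 542 against 651, no longer had all TN areas below HC in plain CPM. Over all oligodendrocyte spots its plain CPM was 484, 462 and 540 against 650. Its log2 difference without spots with a central neuron UMI was -0.16 ± 0.27. Ermn and Myrf also had TN2 above HC in plain CPM, at 109 against 106 and 210 against 208. Opalin stood at 168, 141 and 61.4 against 49.7, with a log2 difference of 1.25 ± 0.61. Aspa, at 93.8, 86.1 and 104 against 65.2, now had all TN areas above HC, and its log2 difference went from 0.30 to 0.48 ± 0.26. No gene was called among 10953 in this fit by edgeR (281 with an unadjusted p under 0.05), and the adjusted p of all 9 was 0.995. Other cell types still differed between these spots, such as the sensory neuron genes at 698 to 1751 in TN and 2484 in HC. Leaving out the spots that also passed the Schwann cell index instead made the differences of the 7 genes larger, with log2 differences of -0.62 for Mobp, -0.65 for Mog, -1.31 ± 0.47 for Klk6, -1.30 ± 0.40 for Enpp6 and -0.87 ± 0.28 for Myrf. In that fit 4 of the 9 genes had an unadjusted p under 0.05 (280 of 12018 genes, 2.33%), and none was called by edgeR. It left out 212 of 874 oligodendrocyte spots in HC, but 63 of 820 in TN1, 26 of 352 in TN2 and 91 of 476 in TN3. In HC the 9 genes together stood at 1077 CPM in the spots left out and at 3611 in those kept. In TN1, TN2 and TN3 they stood at 1590, 1567 and 1570 against 1890, 2004 and 2528. The larger differences are thus not a result separate from that choice of spots.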

How the data were processed

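Spatial gene expression was measured with Visium on 4 capture areas, 3 of TN and 1 of HC. The authors ran Space Ranger 1.2.0 (STAR is named beside it) and deposited raw UMI counts of each gene in each spot, as 1 matrix whose barcode suffix gives the area. As to build and annotation, neither is named in the sources used here.

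The 9 genes and all gene lists were chosen with earlier results of these data known. The named genes were the 9, the listed marker genes and the 10 genes outside the 9 with the highest lowest-of-4-areas r. Of 69 listed genes, Lhfpl3 had no row. Index thresholds were set by Otsu's method on log2(CPM + 50) over all spots. UMIs were summed per area, since spots are not replicates, filtered with filterByExpr and tested with edgeR 4.0.16 (TMM, quasi-likelihood F test, two-sided) in R 4.3.3, with Benjamini-Hochberg adjustment over all genes. SE is the absolute log2 difference divided by the square root of F. The procedure was also run on counts simulated from its own fitted model. That run cannot show how it handles the spread within HC or differences in tissue make-up. DESeq2 1.42.0 was an alternative, as were other size factors, filters, spot sets, thinning to 2000 UMIs (150 shallower spots left out) and leaving out each TN area. Depth was 23546025 to 41335930 UMIs an area, at a median of 9487 to 30808 a spot. Shares of spots cover counting error only, since spots of 1 area are not independent animals. The design of 3 areas against 1 allows an exact permutation p of 0.25 at the lowest, so none is given. Scripts used Python 3.11.15. Spot positions were not used here, and doublets have no meaning for spots. Other markers were Gfap, Aqp4, Slc1a2, Gja1, Aldh1l1, Mlc1 and Agt (astrocytes), Tmem119, P2ry12, Cx3cr1, Csf1r and Aif1 (microglia), Dcn, Lum, Col1a1 and Col3a1 (connective tissue), Alas2, Ahsp, S100a8, S100a9 and Ibsp (blood and bone), Gh1, Prl and Pomc (pituitary), Pdgfra, Cspg4, Gpr17, Neu4, C1ql1, Bcas1 and Tcf7l2 (precursors and newly formed oligodendrocytes), and Pmp22 and Pmp2 among those beside the Schwann cell index. Those of both lineages included Mbp, Mag, Cnp, Mal, Cldn11, Ugt8, Gal3st1, Fa2h, Sox10 and Gjb1. Some genes that entered list sums, counts and medians are not reported here by name.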

Additional observations from a re-analysis of the deposited data

How the results depend on the processing

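No paired analysis was possible because HC is 1 area with no replicate number in the labels. Over all spots, the count of genes called was 0 by edgeR, 164 by DESeq2 and between 0 and 2171 when each TN area was left out, the highest without TN1. In oligodendrocyte spots it was 0 by edgeR, 11 by DESeq2 and 0 without any 1 of the TN areas. It stayed at 0 under the other size factors, filters and spot sets tried. The log2 difference of Opalin over all spots turned to -0.029 without TN1 and ranged up to 1.57 with another TN area left out, and that of Mog in oligodendrocyte spots to 0.15 with the index threshold lowered by 1 log2 unit; the cause was not tested. Every other recomputed difference of the 9 genes kept its direction under the alternatives listed in the methods, but sizes moved: with that lower threshold Mobp went from -0.43 to -0.0021, Ermn from -0.47 to -0.011, Myrf from -0.62 to -0.10 and Aspa from 0.30 to 0.87. Thinning moved the mean share of spots with any of the 9 genes from 96.0% to 57.9%, the mean of the median r between the genes from 0.44 to 0.20 (0.35 by Spearman) and that with Schwann cell genes from -0.31 to -0.12. Oligodendrocyte spots held 69.7% of the UMIs of the 9 genes, 59.0% with the threshold raised and 78.7% with it lowered. The level of Opalin in TN2 spots with a central neuron UMI over those without was 1.01, 0.964 in spots of 5000 to 20000 UMIs and 0.946 without Schwann cell spots, both chosen after seeing the data. With 2 residual degrees of freedom and 1 HC area, a p that misses the threshold does not show equal levels.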
